A study of Mus musculus with 11 samples.

Results

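A set of 8 genes whose products join islet cells to each other was followed through 3 sorted fractions of the mouse islet. They were the gap junction genes *Gjd2*, *Gja1* and *Gjb1*, the cadherins *Cdh1* and *Cdh2*, the neural adhesion gene *Ncam1*, the epithelial adhesion gene *Epcam* and the cell surface gene *Cd24a*. They were chosen by symbol, and each of the 8 matched 1 row among the 55401 genes counted. All 8 were among the 17424 genes with enough counts to test.

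The data were 11 poly(A) RNA-seq libraries, made from FACS fractions of dispersed islets of male C57BL6/J mice aged 10 weeks by the labels, fed chow and not otherwise treated. Every mouse, and so every fraction, carried Cre under the rat insulin promoter (RIP-Cre), a tdTomato reporter behind a STOP cassette (STOP-tdTomato) and EGFP driven from a *Nnat* transgene (Nnat-EGFP). Cells with tdTomato were taken as beta cells, so their definition rests on the insulin promoter of the Cre line, and EGFP divided them into NNAT-positive and NNAT-negative cells. There were 4 libraries of NNAT-positive beta cells, 4 of NNAT-negative beta cells and 3 of non-beta cells, which are the mixture of every other cell in the digest. The study's methods give each replicate as 1 mouse. Fractions with the same replicate number were taken as the same mouse. By these numbers mice 1 to 3 gave all 3 fractions and mouse 4 gave no non-beta library.

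The names of the beta cell fractions are in doubt. *Nnat* itself ran against them. It had 46.0 to 101 CPM (counts per 1e6 counts, median 48.5) in libraries named NNAT-positive and more, 66.5 to 153 CPM (median 77.8), in libraries named NNAT-negative. In the study's own supplementary gene table, 4 of 4 columns headed NNAT-negative hold libraries that GEO labels NNAT-positive, and 4 of 4 columns headed NNAT-positive hold libraries it labels NNAT-negative. The labels were kept, the libraries labelled NNAT-positive or NNAT-negative are called labelled-positive and labelled-negative from here on, and any direction between them follows the label. Comparisons with non-beta cells are the same genes against the same 3 libraries whichever name is right.

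Total counts were 37438669 to 43238376 in the labelled-positive libraries, 30420352 to 38532215 in the labelled-negative ones and 35993622 to 40834007 in non-beta cells. A level of 3 counts was 0.0649 to 0.102 CPM. *Ins1* and *Ins2* took 17.8 to 34.4% of all counts in the beta libraries and 0.970 to 2.34% in non-beta libraries, so insulin transcripts were few but present there. In these bulk libraries fewer cells of a type and less RNA per cell cannot be told apart.

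Gap junctions are channels built from connexins, through which ions and small molecules pass between neighbouring cells. In beta cells they let electrical activity and calcium waves spread across the islet, and connexin 36, the product of *Gjd2*, is the connexin known for this role. Classical cadherins hold cells together by calcium-dependent binding to the same cadherin on the next cell and are anchored to actin by catenins. NCAM, EpCAM and CD24 are surface proteins outside the cadherin family, the last held in the membrane by a lipid anchor.

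*Gjd2* and *Gja1*, connexin genes that differed between beta and non-beta cells in opposite directions, are shown by the 250 bases before their RefSeq start in GRCm38.p6. The *Gjd2* stretch is chr2:114013620-114013869 on the minus strand, and the *Gja1* stretch is chr10:56377050-56377299 on the plus strand. Capitals mark a match to GGGCGG, the GC box.
Gjd2: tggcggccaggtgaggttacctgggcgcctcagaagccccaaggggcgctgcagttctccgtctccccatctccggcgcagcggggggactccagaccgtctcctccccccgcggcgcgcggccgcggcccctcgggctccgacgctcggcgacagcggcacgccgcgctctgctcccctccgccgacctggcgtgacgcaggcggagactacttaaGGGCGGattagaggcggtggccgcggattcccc
Gja1: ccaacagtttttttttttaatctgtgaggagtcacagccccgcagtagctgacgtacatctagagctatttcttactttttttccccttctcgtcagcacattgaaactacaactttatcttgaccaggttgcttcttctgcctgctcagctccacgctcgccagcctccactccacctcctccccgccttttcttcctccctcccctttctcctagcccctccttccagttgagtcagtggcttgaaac

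The sequences differed in composition. The *Gjd2* stretch was 74.0% G and C with 33 CpG dinucleotides, more than 96.0% of the 32851 promoter windows of the same length in RefSeq. The *Gja1* stretch was 50.0% G and C with 6 CpG dinucleotides, the median of those windows. The GC box was searched on both strands, as were the TATA box, written TATAAA, and the CCAAT box, written CCAAT. No pair of matches overlapped. *Gjd2* held 1 GC box, beginning 33 bases before the start, and 32.7% of all windows hold one. *Gja1* held no match to the 3 motifs. A TATA box is in 12.4% of windows and a CCAAT box in 33.9%. RefSeq windows were found for 4 of the 8 members, the others being *Epcam* and *Gjb1*.

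Of the 8 members, *Gjd2* and *Cdh1* were higher in beta than in non-beta cells, *Gja1*, *Gjb1* and *Cd24a* were lower, and *Cd24a* also differed between the beta fractions. Groups were compared with edgeR's quasi-likelihood test with the mouse as a block, and a gene is said to be called where the Benjamini-Hochberg adjusted p over all 17424 genes was under 0.01 and the change over 2-fold. In the comparison of the beta fractions 1 of 8 (*Cd24a*) was called higher and 0 lower in the labelled-positive libraries than in the labelled-negative ones. Of all genes tested, 0.0459% were called higher there and 0% lower, and 839 were higher and 130 lower at an unadjusted p under 0.05. The ranges did not overlap for 1 of 8 members and for 2.05% of all genes.

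Against non-beta cells 2 of 8 members (*Gjd2* and *Cdh1*) were called higher and 3 (*Gja1*, *Gjb1* and *Cd24a*) lower in each beta fraction. *Gja1* and *Gjb1* had enough counts to test only through the non-beta libraries, where they had to be higher. Their lower calls are therefore no support for a direction of the members. These comparisons share the 3 non-beta libraries. In the labelled-positive libraries 6.13% of all genes were called higher and 15.5% lower, and ranges did not overlap for 5 of 8 members and 50.7% of all genes. In the labelled-negative ones 6.18% were called higher and 17.1% lower, and ranges did not overlap for 6 of 8 members and 47.4% of all genes. Beside these shares the numbers of non-overlapping members are no result about the members. Over the 8 members the median log2 fold change was 0.15 between the beta fractions, and -0.11 and -0.26 against non-beta cells. The medians of all genes were 0.05, -0.06 and -0.13. With *Gja1* and *Gjb1* bound to be lower, the medians against non-beta cells are no result about the members.

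*Gjd2* was the connexin of the beta fractions. Its level was 433, 435, 440 and 437 CPM in mice 1 to 4 in the labelled-positive libraries. It was 397, 379, 438 and 434 CPM in the labelled-negative ones, and 27.6, 40.7 and 59.0 CPM in non-beta cells of mice 1 to 3. Every beta library was thus far above every non-beta library, and the 4 labelled-positive libraries were almost equal (436 ± 2.86 CPM, SD, n = 4).

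*Gjd2* was 10.5-fold higher in the labelled-positive libraries than in non-beta cells (log2 fold change 3.398, SE 0.19, adjusted p = 4.36e-07, edgeR, higher in 3 of 3 mice). It was 9.92-fold higher in the labelled-negative ones (3.31, SE 0.19, adjusted p = 4.40e-07, 3 of 3 mice). Between the beta fractions it did not pass the test (log2 fold change 0.09, 95% interval -0.25 to 0.42, adjusted p = 0.976). The value was higher in the labelled-positive library in 4 of 4 mice, by 0.01 to 0.20 on the log2 scale. A change of 2-fold in either direction is outside that interval.

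*Gjd2* lies at 114009601 to 114013619 on the minus strand of chromosome 2 in GRCm38 (gencode M21). A pair of genes named *A530058N18Rik* lies across it on the other strand and shares 18 and 57 exonic bases of its 2879. The one that shares 18 bases was read at 33.0 to 46.6, 36.1 to 52.5 and 6.16 to 8.26 CPM in the same 3 groups, and the one that shares 57 bases at no more than 0.328 CPM. The strand setting of the counting is not given in the sources used here, and the shared bases are few beside the length of *Gjd2*.

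*Gja1* encodes connexin 43, the most widely expressed connexin of the body, found in vessels, heart and glia. It had 2738, 1946 and 1736 counts in non-beta cells of mice 1 to 3, or 59.2, 51.6 and 46.7 CPM. It had 4, 7, 5 and 0 counts in the labelled-positive libraries and 0, 0, 1 and 0 in the labelled-negative ones. Beta libraries therefore held almost no *Gja1*, and the groups of beta and non-beta libraries did not overlap.

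From the summed counts *Gja1* was 527 times as high in non-beta cells as in the labelled-positive libraries (95% interval 324 to 923) and 7140 times as high as in the labelled-negative ones (1281 to 282040). These intervals, here and for *Gjb1*, cover counting error only. The test called it lower in each beta fraction (adjusted p = 8.60e-08 and 5.74e-08, edgeR), but it passed the filter on low counts only through the non-beta libraries, so a difference there was to be found. Between the beta fractions 16 counts stood against 1, a ratio of 13.5 with an interval of 2.10 to 568, and the test across libraries did not call it (adjusted p = 0.302, edgeR).

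*Gjb1*, which encodes connexin 32 of hepatocytes, exocrine cells and myelinating Schwann cells, was scarce everywhere. Non-beta cells had 137, 250 and 242 counts (2.96, 6.62 and 6.51 CPM). The labelled-positive libraries had 0, 1, 6 and 0 counts and the labelled-negative ones 0, 0, 0 and 7. In each beta fraction all but 1 count or all counts came from a single library.

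*Gjb1* was 118 times as high in non-beta cells as in the labelled-positive libraries (57.0 to 295) and 99.9 times as high as in the labelled-negative ones (48.2 to 250). Both were called (adjusted p = 0.000952 and 0.00213, edgeR), with the same dependence on the filter as *Gja1*. The second call was lost without mouse 1 (adjusted p = 0.0116) and without mouse 2 (0.0228). The beta fractions had 7 counts each, and at this depth no difference between them was detectable.

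**Figure D1:**
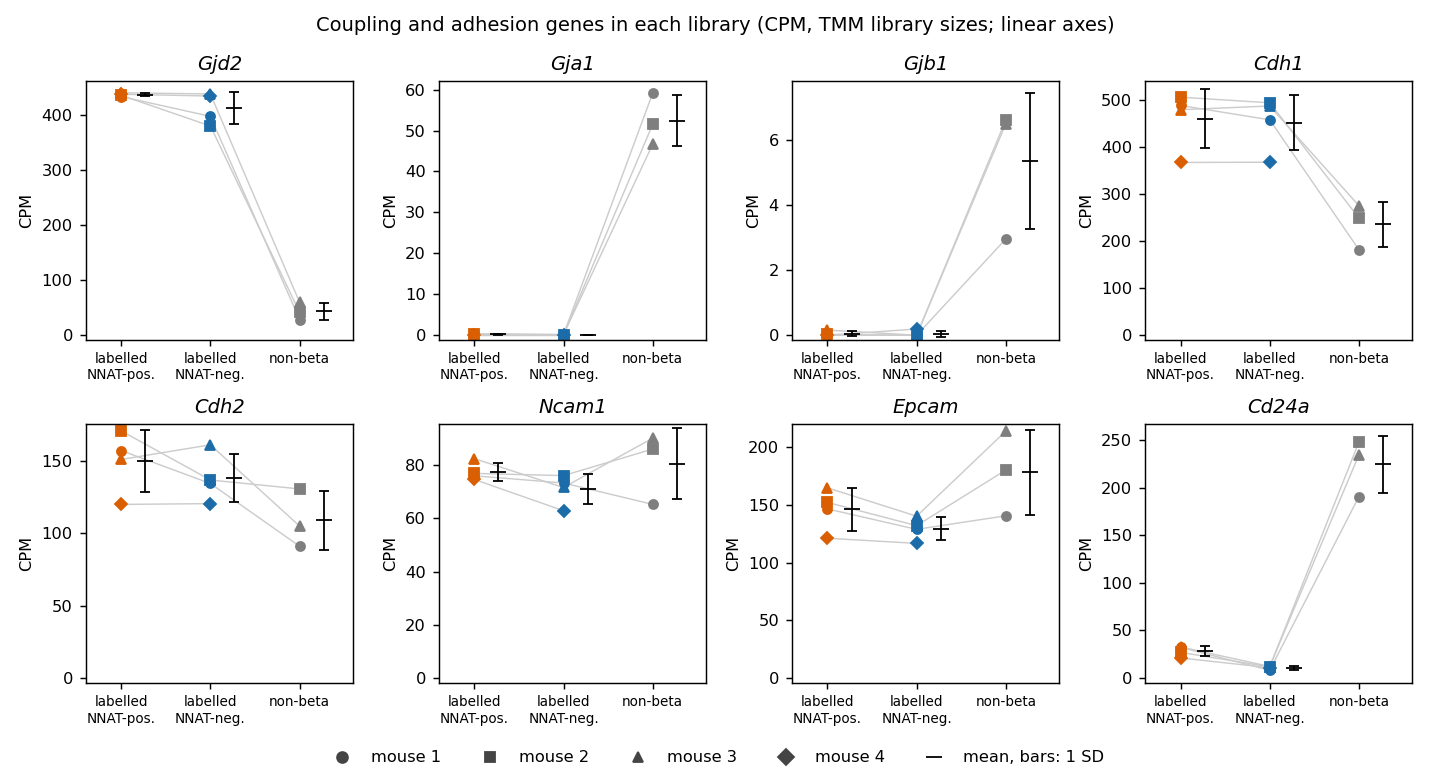
Level of each member in CPM (linear axis from 0) in each library, by labelled fraction; marker shapes are mice, grey lines join the fractions of 1 mouse, and black bars are the mean and 1 SD. *Gjd2* is at 379 to 440 CPM in the beta libraries and at most 59.0 CPM in non-beta cells, *Gja1*, *Gjb1* and *Cd24a* have the opposite pattern, and *Ncam1* is at 62.9 to 90.2 CPM throughout.

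Levels of different genes can be set beside each other only per length, so CPM were divided by the kilobases of exon of each gene (RPKM). Of the summed RPKM of 20 connexins, *Gjd2* made up 99.5% ± 0.211 (SD, n = 4) in the labelled-positive libraries and 99.3% ± 0.211 (n = 4) in the labelled-negative ones. The lowest beta library was at 99.0%. In non-beta cells it made up 38.1% ± 10.0 (n = 3) and was still the first of the 20, followed by *Gja4* (21.8% ± 3.59), *Gja1* (13.7% ± 3.08) and *Gjb1* (8.18% ± 2.83). This order in non-beta cells rests on the length used. *Gja1* has 10257 exonic bases but 3889 in its longest transcript. By the longest transcript it was at 13.5 RPKM there and *Gjd2* at 14.7 RPKM, and the shares were not recomputed. The sum over the 20 connexins was 151 to 154 and 133 to 153 RPKM in the beta fractions and 34.3 to 42.8 RPKM in non-beta cells. Beta libraries thus carried more connexin RNA, nearly all of it *Gjd2*, and non-beta libraries carried less from more genes.

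The summed markers of other cell types in the non-beta libraries bear on where *Gja1* and *Gjb1* could have been read. There, 6 endothelial markers summed to 1637 to 1858 CPM, 6 mesenchymal markers to 3131 to 6918 CPM, 6 acinar markers to 11262 to 42698 CPM and 5 Schwann cell markers to 23.7 to 33.0 CPM. In the beta libraries endothelial markers summed to 5.82 to 12.6 CPM and mesenchymal markers to 0.0609 to 4.69 CPM, with *Pdgfra* at 0 in all 8. Their part in these results was not tested.

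Counts for the gene lists that follow stand beside the shares of all genes, of which 6.13% and 6.18% were called higher and 15.5% and 17.1% lower than non-beta cells in the labelled-positive and labelled-negative libraries. Genes that would fail the filter in the beta libraries alone were tested only through the non-beta libraries, where they had to be higher. Their calls are no support for a direction of a list, and they pull its median log2 fold change down. Among the 23 connexins and pannexins listed, 13 were tested, 8 of them only in this way. Against non-beta cells 1 was called higher and 6 lower in the labelled-positive libraries, and 1 higher and 5 lower in the labelled-negative ones, *Gjd2* being the one that was higher. All the lower calls, 6 and 5, were among those 8 genes. The median log2 fold change of the tested genes was -7.76 and -7.15, where the median of all genes was -0.06 and -0.13. With 8 of the 13 bound to be lower, this median is no result about the list. *Gja4*, the connexin 37 gene of arterial endothelium, was at 0.0471 and 0.0273 CPM in the beta fractions and 13.8 CPM in non-beta cells with both differences called. *Gjc1*, the connexin 45 gene of smooth muscle and neurons, was at 0.0632, 0.00683 and 10.6 CPM with both called. Both genes were tested only through the non-beta libraries, so these calls add nothing to their levels. None of the 13 was called between the beta fractions.

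**Figure D2:**
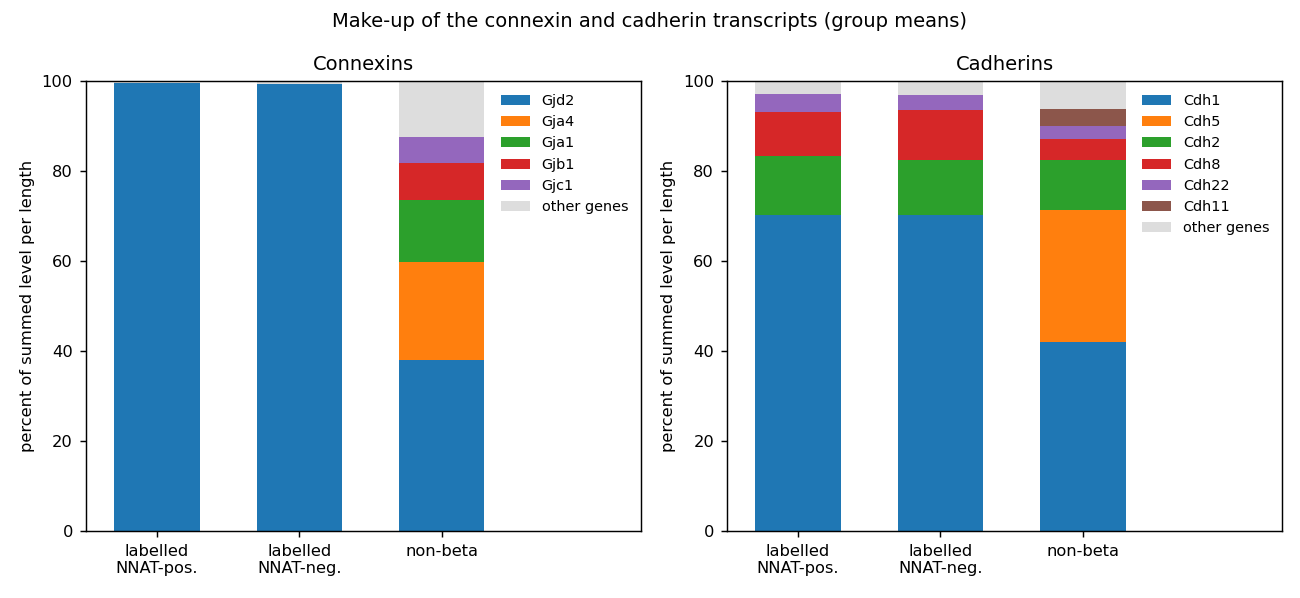
Mean percentage of the summed level per length (RPKM) of 20 connexins (left) and 23 cadherins (right) that each gene made up in each labelled fraction; grey is all other genes of the family. *Gjd2* fills 99.5% and 99.3% of the connexin bars of the beta fractions and 38.1% in non-beta cells, and *Cdh1* fills 70.3%, 70.2% and 42.1% of the cadherin bars.

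*Cdh1*, which encodes E-cadherin of epithelia, was at 488, 506, 479 and 367 CPM in mice 1 to 4 in the labelled-positive libraries. It was at 457, 494, 487 and 367 CPM in the labelled-negative ones and at 181, 249 and 275 CPM in non-beta cells. The lowest beta libraries, both from mouse 4, were above the highest non-beta library. The beta fractions of one mouse lay close together, within 0.09 on the log2 scale in all 4 mice.

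*Cdh1* was 2.11-fold higher in the labelled-positive libraries than in non-beta cells (log2 fold change 1.08, SE 0.12, adjusted p = 4.32e-05, edgeR, 3 of 3 mice). It was 2.07-fold higher in the labelled-negative ones (1.05, SE 0.12, adjusted p = 4.75e-05, edgeR, 3 of 3 mice). Both folds lay just past the 2-fold minimum and fell below it in 5 of 11 alternatives each, among them the fit with no replicate block (0.97 and 0.94) and the one without mouse 1 (0.91 and 0.91), while the adjusted p stayed under 0.01. Labelled-positive over labelled-negative, the log2 fold change was 0.03 (95% interval -0.21 to 0.26, adjusted p = 1).

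*Cdh2*, which encodes N-cadherin of neural and endocrine cells, was at 157, 171, 151 and 120 CPM in the labelled-positive libraries and at 134, 137, 161 and 120 CPM in the labelled-negative ones. Non-beta cells had 91.0, 131 and 105 CPM, so that the beta and non-beta ranges overlapped through mouse 4 of the beta cells and mouse 2 of the non-beta cells. The log2 fold change to non-beta cells was 0.54 (SE 0.11, adjusted p = 0.00289, edgeR, 3 of 3 mice) and 0.44 (SE 0.12, adjusted p = 0.00979, edgeR, 3 of 3 mice), both under 2-fold. The adjusted p rose above 0.01 in 4 and in 7 of 11 alternatives, and was 0.0359 and 0.103 with no replicate block. The beta fractions differed by a log2 fold change of 0.11 (95% interval -0.12 to 0.34, adjusted p = 0.939), with 2 of 4 mice in each direction.

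Of the summed RPKM of 23 cadherins, *Cdh1* made up 70.3% ± 1.14 and 70.2% ± 2.15 (SD, n = 4 each) in the beta fractions and 42.1% ± 4.66 (n = 3) in non-beta cells. *Cdh2* made up 12.99% ± 0.443, 12.2% ± 0.801 and 11.1% ± 1.31. The sum was 117 to 155, 119 to 151 and 106 to 129 RPKM, so unlike that of the connexins it overlapped between beta and non-beta cells. In non-beta cells *Cdh5*, the cadherin of endothelium, stood second with 29.3% ± 0.842.

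Of 23 cadherins listed, 16 were tested, 8 of them only through the non-beta libraries. In each beta fraction 3 were called higher and 6 lower than in non-beta cells, and all 6 lower ones were among those 8. The median log2 fold change was -1.30 and -1.91, beside -0.06 and -0.13 over all genes. With 8 of the 16 bound to be lower, this median is no result about the list. *Cdh8*, a cadherin of neurons, was at 107, 121 and 43.6 CPM in the labelled-positive, labelled-negative and non-beta libraries (log2 fold change 1.32 and 1.498, adjusted p = 1.23e-05 and 5.00e-06, edgeR). *Cdh7* was at 12.8, 17.5 and 1.47 CPM (3.06 and 3.53, adjusted p = 0.000118 and 4.90e-05, edgeR). *Cdh11*, the cadherin of mesenchyme, was at 0.0776, 0.0688 and 39.0 CPM, and *Cdh5* at 0.0632, 0 and 149 CPM. *Cdh11* and *Cdh5* were tested only through the non-beta libraries.

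The 13 catenins and adherens junction partners, which tie cadherins to actin or join cells beside them, were all tested, 1 of them only through the non-beta libraries. In the labelled-positive libraries 2 were called higher and 3 lower than in non-beta cells, and in the labelled-negative ones 2 higher and 4 lower (median log2 fold change -0.27 and -0.25). The gene tested only through the non-beta libraries is 1 of the lower calls in each. The adhesion genes *Nectin3* (143, 142 and 54.5 CPM) and *Nectin1* (31.6, 30.9 and 14.4 CPM) were the 2 that were higher, with log2 fold changes of 1.40 and 1.39, and of 1.29 and 1.25. *Jup*, the plakoglobin gene, was at 60.6, 45.8 and 180 CPM (-1.49 and -1.90), and *Vcl*, the vinculin gene, at 19.2, 17.5 and 76.4 CPM (-2.001 and -2.12). Adjusted p for these 4 genes was at most 5.08e-05 (edgeR).

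Of 25 tight junction genes, which seal epithelia, 24 were tested, 4 of them only through the non-beta libraries. Called were 2 higher and 8 lower in the labelled-positive libraries and 3 higher and 9 lower in the labelled-negative ones (median -0.52 and -0.86). Those 4 genes, bound to be lower, are among the lower calls in each. *Marveld3* was at 46.0, 45.6 and 19.8 CPM and *Tjp3* at 17.2, 15.0 and 8.02 CPM (log2 fold changes 1.19 and 1.19, and 1.23 and 1.03). *Jam3* was at 16.9, 15.3 and 50.4 CPM (-1.54 and -1.69), and the claudin gene *Cldn6* at 8.31, 3.36 and 35.6 CPM (-1.96 and -3.34). No gene of these lists was called between the beta fractions.

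*Ncam1*, the neural cell adhesion molecule of neurons and endocrine cells, was at 76.1, 77.0, 82.5 and 74.7 CPM in the labelled-positive libraries and at 73.3, 76.1, 71.7 and 62.9 CPM in the labelled-negative ones. Non-beta cells had 65.3, 86.1 and 90.2 CPM. The 3 groups overlapped, and the non-beta library of mouse 1 was the lowest but one of all.

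No comparison of *Ncam1* passed the test. The log2 fold change was 0.13 between the beta fractions (95% interval -0.08 to 0.33, adjusted p = 0.915, edgeR, higher in the labelled-positive library in 4 of 4 mice). It was -0.01 (-0.24 to 0.22) and -0.14 (-0.37 to 0.09) against non-beta cells (adjusted p = 0.957 and 0.301, edgeR). A 2-fold change in either direction lies outside each of these intervals. *Gm11149*, on the other strand, shares 417 of its 8664 exonic bases and had at most 3 counts in a library.

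All 8 listed genes of the NCAM and L1 family and its polysialylation were tested, 1 of them only through the non-beta libraries. None was called higher in a beta fraction than in non-beta cells, 3 were called lower in each and the others were not called (median -1.26 and -2.04, all genes -0.06 and -0.13). *St8sia4*, an enzyme that adds polysialic acid to NCAM, was at 0.156, 0.0768 and 36.0 CPM. It is the one of the 8 tested only through the non-beta libraries, and 1 of the 3 lower calls in each. *Chl1*, a close relative of L1, was at 1.67 CPM in the labelled-positive libraries and 20.0 CPM in non-beta cells (adjusted p = 0.000826, edgeR). *Ncam2* was at 1.07 CPM in the labelled-negative ones and 16.3 CPM in non-beta cells (adjusted p = 0.000419, edgeR).

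*Epcam*, whose product joins epithelial cells and is found on islet cells, was at 147, 152, 165 and 121 CPM in the labelled-positive libraries and at 129, 132, 140 and 117 CPM in the labelled-negative ones. It was at 141, 180 and 214 CPM in non-beta cells. The non-beta range lay above that of the labelled-negative libraries, with 141 against 140 CPM at the edge, and overlapped the other.

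*Epcam* did not pass the test in any comparison. Set against non-beta cells, its log2 fold change was -0.21 (95% interval -0.43 to 0.01, adjusted p = 0.112, edgeR) and -0.38 (-0.61 to -0.16, adjusted p = 0.0101, edgeR), the latter missing 0.01 narrowly and passing it in 6 of 11 alternatives. In the comparison of beta fractions it was 0.17 (-0.03 to 0.37, adjusted p = 0.886, edgeR), with the labelled-positive library higher in 4 of 4 mice, by 0.05 to 0.23. Differences of *Epcam* beyond 2-fold are outside all 3 intervals.

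*Cd24a* encodes a small, heavily glycosylated surface protein of leukocytes, immature neurons and epithelia. It was the member that differed between the beta fractions. Its level was 32.4, 26.97, 32.7 and 21.1 CPM in mice 1 to 4 in the labelled-positive libraries, and 8.16, 11.8, 12.1 and 10.9 CPM in the labelled-negative ones. Non-beta cells had 191, 248 and 235 CPM. No pair of the 3 groups overlapped, with non-beta cells highest and labelled-negative beta cells lowest.

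*Cd24a* was 2.63-fold higher in the labelled-positive libraries than in the labelled-negative ones (log2 fold change 1.39, SE 0.15, 95% interval 1.07 to 1.72, adjusted p = 0.00751, edgeR). It was higher in 4 of 4 mice, by 1.98, 1.19, 1.43 and 0.95 on the log2 scale. The call was lost without any 1 mouse (log2 fold change 1.201 without mouse 1, 1.45 without mouse 2, 1.38 without mouse 3 and 1.5002 without mouse 4, with adjusted p = 0.0137, 0.0698, 0.134 and 0.0133, edgeR) and with no replicate block (1.40, adjusted p = 0.0313). It was also lost in a fit of the beta libraries alone (1.35, adjusted p = 0.0109), and held in the other 5 alternatives.

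Against non-beta cells *Cd24a* was 7.60-fold lower in the labelled-positive libraries (log2 fold change -2.93, SE 0.16, adjusted p = 3.49e-07, edgeR, lower in 3 of 3 mice). It was 20.0-fold lower in the labelled-negative ones (-4.32, SE 0.17, adjusted p = 5.21e-08, edgeR, 3 of 3 mice).

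**Figure D3:**
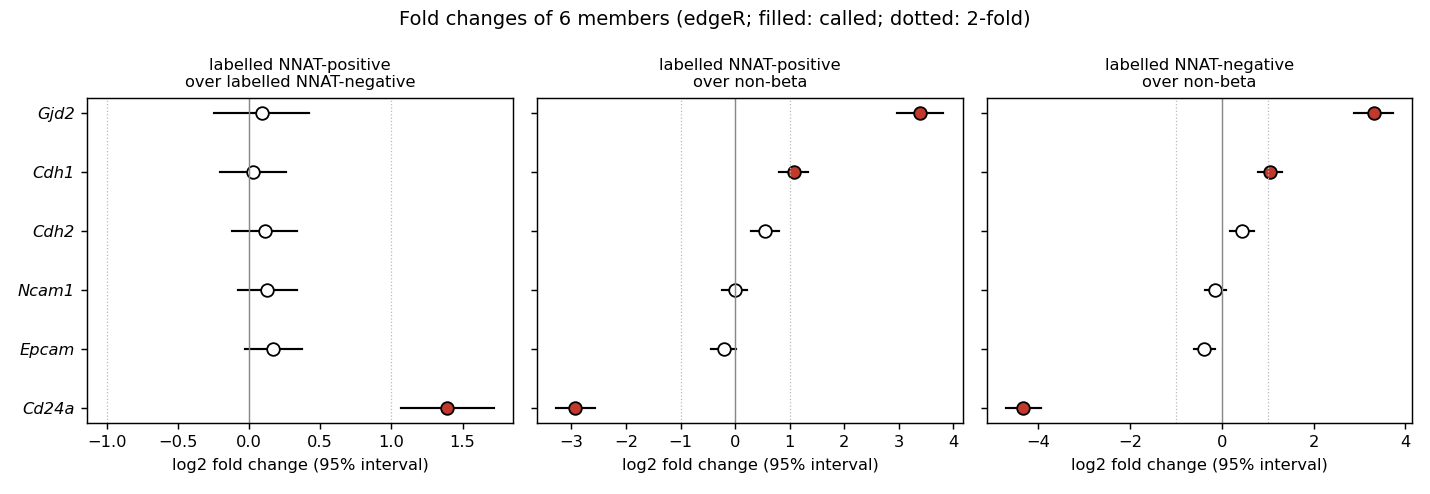
Fold changes (log2, edgeR) of the 6 members with counts in every library in the 3 comparisons, each with its 95% interval; filled points were called, and dotted lines mark a 2-fold change. Between the beta fractions *Cd24a* (1.39) is the one filled point, and the other 5 lie between 0.03 and 0.17.

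Markers of delta, PP and alpha cells moved with *Cd24a*. As a share of their non-beta level, *Cd24a* stood at 12.6% in the labelled-positive libraries and 4.77% in the labelled-negative ones. Summed over 4 delta cell markers the shares were 17.8% and 6.98%, over 2 PP cell markers 11.5% and 4.404%, and over 6 alpha cell markers 1.99% and 0.966%. Each of these 3 sums was higher in the labelled-positive library in 4 of 4 mice, with the mean of 4 of 4, 2 of 2 and 6 of 6 genes higher. Called between the beta fractions were 1 of the 4 delta markers, 2 of the 2 PP markers and 0 of the 6 alpha markers. Over all genes tested 8 were called there. The ranges of these 3 sums did not overlap between the beta fractions. The delta sum was 1403 to 2490 CPM against 544 to 1046 CPM, and the PP sum 300 to 421 against 89.0 to 159 CPM. The alpha sum was 2235 to 3534 against 1057 to 1928 CPM. Beta cell markers went the other way. Summed over 8 of them the shares were 1650% in the labelled-positive libraries and 1868% in the labelled-negative ones. The mean of 1 of 8 genes was higher in labelled-positive, as was the sum in 2 of 4 mice. Without the labelled-negative library of mouse 2 the shares were 1650% and 1614%.

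Schwann cell markers were also higher in the labelled-positive library in 4 of 4 mice (4 of 5 genes), at 47.3% and 37.0% of their non-beta level, from sums of no more than 16.4 CPM in a beta library. Leukocyte markers stood at 0.823% and 0.292% (5 of 5 genes, 3 of 4 mice), and at 0.473% and 0.292% without the labelled-positive library of mouse 1. Acinar markers stood at 1.46% and 0.476% (5 of 6 genes, 3 of 4 mice), but the first value rests on the labelled-positive library of mouse 2, with a sum of 1520 CPM, and was 0.220% without it. Endothelial markers stood at 0.492% and 0.460% (5 of 6 genes, 3 of 4 mice). Most of the endothelial sum in the beta libraries was *Esam*, at 6.36 and 7.19 CPM there and 80.3 CPM in non-beta cells. *Esam* was the gene of that list not higher in labelled-positive. Mesenchymal markers stood at 0.0535% and 0.0460% (4 of 6 genes, 2 of 4 mice). For both lists the order turned when certain single libraries were left out. Duct markers stood at 63.5% and 66.1% (4 of 5 genes higher in labelled-positive, 3 of 4 mice), and at 63.5% and 63.2% without the labelled-negative library of mouse 2. Most of that sum in the beta libraries was *Krt7*, at 211 and 224 CPM there and 113 CPM in non-beta cells. The other 4 were lower in beta than in non-beta cells. In the labelled-positive, labelled-negative and non-beta libraries *Krt19* was at 1.93, 1.81 and 28.7 CPM and *Sox9* at 0.472, 0.261 and 11.0 CPM. *Spp1* was at 19.5, 16.6 and 198 CPM and *Muc1* at 0.5, 0.186 and 16.4 CPM. *Prss1* and *Pdgfra* were at 0 in all beta libraries, and *Cdh5* and *Gfap* in all the labelled-negative ones. The part of other cells in the *Cd24a* result was not tested.

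**Figure D4:**
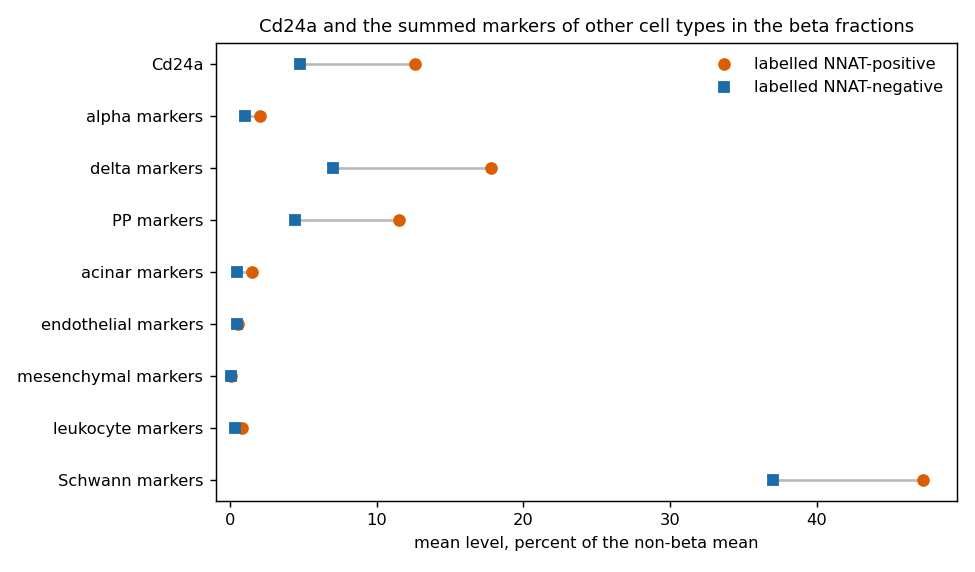
Mean level of *Cd24a* and mean summed level of 8 marker lists in the beta fractions, as a percentage of the non-beta mean (linear axis); circles are labelled-positive libraries and squares the labelled-negative ones. The beta and duct lists are not drawn. Beta markers stood at 1650% in labelled-positive and 1868% in labelled-negative libraries, and duct markers at 63.5% and 66.1%. *Cd24a* (12.6% and 4.77%) lies between the PP and the delta markers, and endothelial and mesenchymal markers are under 1%.

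The list of genes related to EpCAM and CD24 held 8, of which 7 were tested, 2 of them only through the non-beta libraries. *Cd24a* was the gene called between the beta fractions, and 0 were called higher against non-beta cells, where 2 and 3 were lower (median -0.67 and -0.94). Of these lower calls, 1 and 2 were of genes tested only through the non-beta libraries. *Selp*, the P-selectin gene, a binding partner of CD24, had no count in a beta library and 7.14 CPM in non-beta cells. *Siglecg*, a sialic acid receptor of B cells, had none in the labelled-negative ones and 1.59 CPM in non-beta cells. These 2 genes were tested only through the non-beta libraries. Of 22 Eph receptors and ephrins, the contact signals between neighbouring cells, 18 were tested, 6 of them only through the non-beta libraries. None was called higher, and 11 and 12 were called lower in the beta fractions, 5 of these in each among those 6 (median -2.50 and -3.63, all genes -0.06 and -0.13). Those 6 genes were bound to be lower and pull the median down. *Efnb1* was at 18.5, 16.1 and 55.9 CPM (log2 fold change -1.53 and -1.74), *Ephb4*, the receptor of venous endothelium and one of the 6, at 0.181 CPM in the labelled-positive libraries and 60.0 CPM in non-beta cells, and *Efnb3* at 4.19 CPM in the labelled-negative ones and 54.6 CPM in non-beta cells.

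Per length, the members fell in nearly the same order in both beta fractions. In the labelled-positive libraries it was *Gjd2* (151 RPKM ± 0.994, SD, n = 4), *Cdh1* (101 ± 13.8), *Epcam* (66.6 ± 8.37), *Cdh2* (18.6 ± 2.67), *Cd24a* (11.0 ± 2.12), *Ncam1* (8.95 ± 0.397), *Gjb1* (0.0265 ± 0.0442) and *Gja1* (0.01002 ± 0.00705). Neighbours overlapped there for *Cd24a* and *Ncam1* and for *Gjb1* and *Gja1*. In the labelled-negative ones *Ncam1* (8.20 ± 0.659) stood before *Cd24a* (4.15 ± 0.692) without overlap, and only *Gjb1* and *Gja1* overlapped.

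In non-beta cells the order was *Cd24a* (87.1 RPKM ± 11.6, SD, n = 3), *Epcam* (81.2 ± 16.8), *Cdh1* (51.3 ± 10.5), *Gjd2* (14.7 ± 5.48), *Cdh2* (13.5 ± 2.49), *Ncam1* (9.30 ± 1.54), *Gja1* (5.12 ± 0.615) and *Gjb1* (3.14 ± 1.22). *Cd24a* overlapped *Epcam* and *Gjd2* overlapped *Cdh2*. *Cd24a* thus went from rank 1 of the 8 in non-beta cells to ranks 5 and 6 in the beta fractions, and *Gjd2* from rank 4 to rank 1.

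For each member the genes with the most similar log2 CPM over the 11 libraries were looked up. These correlations are descriptions over libraries that share 3 fractions and 4 mice, and for members that differ between beta and non-beta cells they follow that split. For *Gjd2* they were *Ero1lb* (Pearson's r = 0.997), *Pcsk1* (0.997), the prohormone convertase, and *Car10* (0.997). For *Cdh1* they were *Slc44a3* (0.989), *Smap2* (0.988) and *Myo6* (0.987), and for *Cdh2* *G3bp2* (0.967), *Cmtm4* (0.959) and *Sipa1l3* (0.957). *Cd24a* was most like *Pyy* (0.996), the peptide YY gene, *Rbp4* (0.994) and *Arg1* (0.993).

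*Pyy* stood at 213, 85.5 and 1936 CPM in the labelled-positive, labelled-negative and non-beta libraries, and *Rbp4* at 72.0, 27.025 and 563 CPM. Both are in the marker lists used above, *Pyy* under PP cells and *Rbp4* under delta cells. *Arg1*, the arginase gene, stood at 21.8, 9.17 and 131 CPM and is in none of them.

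*Gja1* was most like *Ehd4* (0.997), *Card10* (0.996) and *Ppic* (0.996), and *Gjb1* most like *Kcna1* (0.997), *Aspa* (0.994) and *Upp1* (0.984). The flatter members had looser neighbours. *Epcam* was most like *Resp18* (0.943), *Gcsh* (0.934) and *Asb3* (0.929), and *Ncam1* most like *Kcnk12* (0.886), *Emc6* (0.886) and *Gpa33* (0.845).

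By gencode M21 in GRCm38 the other members lie at 56377330 to 56402513 of chromosome 10 (*Gja1*, plus strand), 101376378 to 101385629 of chromosome X (*Gjb1*, plus), 106603351 to 106670246 of chromosome 8 (*Cdh1*, plus) and 16588877 to 16809246 of chromosome 18 (*Cdh2*, minus). *Ncam1* lies at 49502136 to 49798925 of chromosome 9 (minus), *Epcam* at 87635979 to 87651129 of chromosome 17 (plus) and *Cd24a* at 43578284 to 43584265 of chromosome 10 (plus). All 8 are protein-coding, and a value counts reads over all exons of a gene.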

How the data were processed

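RNA-seq was performed by the authors on 11 sorted fractions of mouse islets (NEBNext Ultra II Directional kit with poly(A) selection, paired reads). Per the labels and the study's methods, reads were aligned to mm10 with STAR 2.7.1a, and the deposited values are whole-number counts per gencode gene, not normalised. The strand setting of the counting is not given in the sources used here. The study's own comparisons used DESeq2 1.32.0 and were not used here.

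Library sizes were TMM-normalised, and genes were kept by filterByExpr in edgeR 4.0.16 (R 4.3.3). The quasi-likelihood test used all 11 libraries, with the mouse as a block. A gene counted as called with an adjusted p under 0.01 and over 2-fold change. Totals were 30420352 to 43238376 counts a library, so counting error weighs mainly on genes near 3 counts (0.0649 to 0.102 CPM). Log2 CPM used a prior count of 2. Beta fractions of the same mouse deviated together (correlation of their deviations from the group means 0.182 to 0.658 over 4 pairs), and beta and non-beta fractions less so (0.0321 to 0.125). The replicate numbers were used to pair the samples, as the study's methods give each replicate as 1 mouse. That equal numbers in different fractions are the same mouse is not stated there.

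RPKM divided CPM by the union of exons in gencode M21, which 55141 of 55401 identifiers matched without version. Promoter sequences came from RefSeq.

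The members and lists were chosen with earlier results of these data known. The genes named outside the members were, per list, comparison and direction, the 2 with the smallest p among those called with non-overlapping ranges, and the 3 most similar to each member. *Nnat*, *Ins1*, *Ins2*, the overlapping genes and *Cdh5* as a share of the cadherins were named outside that rule, after their values were seen. So were *Prss1*, *Pdgfra*, *Cdh5* and *Gfap* as markers at 0, the single duct markers and *Esam*. Alternatives used DESeq2 1.42.0, RLE size factors, no filter, no block, the compared groups alone, no insulin genes, other thresholds and each mouse left out. DESeq2 with no replicate block was added after the data were seen.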

Additional observations from a re-analysis of the deposited data

Results flagged for a closer look

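A few values of connexin genes stood apart from the other libraries of their group, and each rests on few counts. The rate of 1 in 20 groups that chance gives holds for continuous values, not for these counts: where the other 3 libraries are at 0, any count stands apart, whatever its size. *Gja1* was at 0.0277 CPM in the library labelled NNAT-negative of mouse 3 and at 0 in the other 3, which is 1 count. *Gjb1* was at 0.157 CPM in the library labelled NNAT-positive of mouse 3, from 6 counts, where the others had at most 1. *Gjb1* was at 0.191 CPM in the library labelled NNAT-negative of mouse 4, from 7 counts, where the others had 0.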

How the results depend on the processing

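Against non-beta cells *Gjd2*, *Gja1* and *Cd24a* kept their direction and their call in all 11 alternatives. *Gja1* passed the filter only through the non-beta libraries, so for it this adds no support. The number of members called against non-beta cells was 5 in each beta fraction, *Gja1* and *Gjb1* with this same limit among them. With a mouse left out it was 4 to 5 and 3 to 5, and 3 in the labelled-negative libraries without mouse 1. The comparison of the beta fractions depended on the replicate block. With no replicate block 1 gene was called there in place of 8, and 0 members in place of 1, and against non-beta cells 4 members were called in place of 5 in each. The call of *Cd24a* also failed in a fit of the beta libraries alone (0 members) and with any mouse left out (0 to 0 members, and 0 to 5 genes). Genes called between the beta fractions were 86 with DESeq2, 41 with DESeq2 and no replicate block, 26 with no filter on low counts and 16 at an adjusted p below 0.05. With no fold minimum 6072 and 6420 genes were called against non-beta cells, in place of 3765 and 4056. With a mouse left out these were 3020 to 3497 and 3281 to 3810. The cause of these changes was not tested.

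Members not called had their sign turned in some alternatives. Between the beta fractions *Cdh1* went to -0.01 with DESeq2, with RLE size factors, without the filter (-0.0067), with the beta libraries alone (-0.0137), without the insulin genes (-0.0042), without mouse 4 (-0.0020; -0.0020 to 0.0453 with each mouse left out) and with DESeq2 and no block (-0.0115). *Gjb1* went to -0.15 with no replicate block, -0.08 without mouse 2, -1.95 without mouse 3 (up to 4.11 without mouse 4) and -0.16 with DESeq2 and no block. *Ncam1* against non-beta cells went to 0.04 and 0.064 (from -0.1203 without mouse 1) in the labelled-positive libraries without mice 2 and 3. With the longest transcript as length, *Cdh2* passed *Gjd2* and *Gja1* passed *Ncam1* in non-beta cells, and the order in the beta fractions stayed as given. Shares of the connexins and cadherins were not recomputed with that length. With other cells in a sort and expression in beta cells both possible, the source of low counts such as those of *Gja1* cannot be told apart in bulk libraries.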
